A study of Mus musculus with 3 samples.

Results

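Ephrins and Eph receptors were followed through a serum-induced epithelial to mesenchymal transition of mouse ovarian surface epithelium (OSE), a sheet of cells on the outside of the ovary. Members were all genes whose name in the array files begins with Efna, Efnb, Epha or Ephb followed by a digit. The rule found 10 genes on 13 probes, out of 20371 probes on the array without controls. After the probe filters, which the members had not yet passed in this count, 9957 named genes were left on the whole array. The genes are the ephrin-A ligands Efna1 and Efna2, the ephrin-B ligands Efnb1, Efnb2 and Efnb3, the EphA receptors Epha2 and Epha4, and the EphB receptors Ephb2, Ephb3 and Ephb6. Efnb1, Epha2 and Ephb2 each had 2 probes.

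RNA was measured on 2-colour Agilent oligonucleotide arrays in 3 separate cultures. Mesenchymal cells came from the part of each culture that was held for 1 week in 15% fetal bovine serum, and epithelial cells from the part of the same culture that was kept in 2.5% serum. The cells were taken from C57/Bl6 mice, virgin females that were superovulated and mated before the ovaries were dissected, and were collected at 80% confluence. The effect of more serum and that of the change in phenotype cannot be told apart, since the 3 cultures had both at once. Both RNAs of a culture shared 2 arrays with the dyes exchanged, and these were averaged to 1 value per culture, so n = 3 cultures throughout. Ratios below are given as log2 of mesenchymal over epithelial RNA. A gene was called changed at a Benjamini-Hochberg adjusted p under 0.05 in limma, adjusted over all 17582 features. These were the brightest probe of each of 9957 named genes and, as features of their own, the probes without a gene name. Shares given over all features include both kinds.

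Eph receptors are the largest family of receptor tyrosine kinases, and their ligands, the ephrins, are themselves held in the membrane, so that signalling needs contact between cells. Ephrin-A ligands are attached by a lipid anchor and bind mainly EphA receptors, whereas ephrin-B ligands span the membrane and bind mainly EphB receptors. Signals run into the receptor-bearing cell and back into the ligand-bearing cell, and they govern cell repulsion, adhesion and the sorting of cells at tissue boundaries. In epithelia Eph receptors and ephrins lie at cell junctions.

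The promoters of the 5 genes that were called changed are shown here because these genes moved in the same direction. RefSeq (assembly GRCm38.p6) had 10 windows of 300 bases around an annotated start, for 9 of the 10 genes. Efna1 had 2 of these windows, both counted below, and Efnb3 had none. Each sequence is given 5′ to 3′ on the strand of its gene, and capitals mark matches on either strand to GGGCGG, the GC box bound by SP family factors, and to CACCTG, the E-box bound by SNAI and ZEB repressors.
Efna2 (chr10:80179232-80179531, plus strand): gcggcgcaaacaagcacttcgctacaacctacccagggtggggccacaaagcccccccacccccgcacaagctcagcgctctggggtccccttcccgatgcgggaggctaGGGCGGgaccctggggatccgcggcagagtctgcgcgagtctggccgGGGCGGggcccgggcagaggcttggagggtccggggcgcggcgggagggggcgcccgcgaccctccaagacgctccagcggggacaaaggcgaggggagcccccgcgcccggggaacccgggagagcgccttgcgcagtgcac
Efnb1 (chrX:99135811-99136110, plus strand): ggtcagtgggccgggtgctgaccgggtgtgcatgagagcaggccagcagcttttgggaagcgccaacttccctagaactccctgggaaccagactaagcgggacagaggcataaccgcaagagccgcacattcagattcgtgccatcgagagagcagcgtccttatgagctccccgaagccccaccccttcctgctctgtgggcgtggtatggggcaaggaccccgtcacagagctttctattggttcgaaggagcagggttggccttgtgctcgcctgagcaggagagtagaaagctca
Efnb2 (chr8:8661193-8661492, minus strand): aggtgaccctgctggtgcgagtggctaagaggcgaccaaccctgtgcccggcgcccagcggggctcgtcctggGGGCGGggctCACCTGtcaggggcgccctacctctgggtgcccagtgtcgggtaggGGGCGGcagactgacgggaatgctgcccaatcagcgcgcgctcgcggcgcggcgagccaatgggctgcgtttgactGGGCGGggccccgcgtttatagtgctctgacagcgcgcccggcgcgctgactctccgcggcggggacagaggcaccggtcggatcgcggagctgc
Ephb2 (chr4:136835963-136836262, minus strand): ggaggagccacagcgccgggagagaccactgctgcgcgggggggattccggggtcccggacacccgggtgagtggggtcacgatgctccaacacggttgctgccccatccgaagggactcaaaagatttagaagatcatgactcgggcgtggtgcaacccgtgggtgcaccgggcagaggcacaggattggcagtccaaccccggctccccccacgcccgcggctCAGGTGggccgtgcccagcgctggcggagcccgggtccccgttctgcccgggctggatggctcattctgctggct
Ephb3 (chr16:21204545-21204844, plus strand): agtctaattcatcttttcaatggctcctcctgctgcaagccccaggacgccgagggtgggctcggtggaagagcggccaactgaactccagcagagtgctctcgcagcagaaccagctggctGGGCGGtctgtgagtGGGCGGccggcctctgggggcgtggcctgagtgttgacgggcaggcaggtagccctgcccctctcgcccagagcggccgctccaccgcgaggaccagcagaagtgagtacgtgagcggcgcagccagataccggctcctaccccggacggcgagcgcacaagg
GGGCGG occurred in 8 of the 10 windows and in 35.7% of 32851 RefSeq windows of the same length. CACCTG occurred in 2 windows, those of Efnb2 and Ephb2, and in 20.2% of all windows. Searched on both strands as well, TGACTCA, the AP-1 site, was in 0 windows and in 5.2% of all, and GGAATG, the TEAD site, was in 2 windows (Efnb2 and Epha2) and in 14.7% of all. No match of a motif overlapped a match of another. The member windows were also rich in CpG, with 10 to 35 CpG each and a GC content of 54.7% to 76.3%, against medians of 7 CpG and 52.7% over all windows. A match is a description of these letters and not a bound site.

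The arrays differed in quality in ways that touch every value below. On the array of culture 3 that had mesenchymal RNA in Cy3, 1639 probes were flagged as outliers by the scanner software, against 61 to 467 on the other 5 arrays, and that array alone had a constant background subtracted. Over all probes the turned ratios of arrays with the same dye orientation correlated at 0.81 to 0.93, and those of opposite orientation at -0.53 to -0.14. The SD over features was 0.46 for the dye effect and 0.31 for the mean log2 ratio. After averaging, cultures 2 and 3 correlated at 0.89, cultures 1 and 2 at 0.61 and cultures 1 and 3 at 0.65 across features, which are not independent replicates. Every member probe was flagged well above background in both RNAs on 6 of 6 arrays and lay above the 95th percentile of the negative control spots. Saturation touched a single member spot, that of Efnb3 for mesenchymal RNA on 1 array.

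The ephrin and Eph receptor genes were lower in mesenchymal cells or did not pass the test. Of 8 genes tested at gene level, 5 fell (Efna2, Efnb1, Efnb2, Ephb2 and Ephb3), 0 rose and 3 did not pass (Efna1, Efnb3 and Epha2). Over all features 11.9% were called, 5.96% higher and 5.92% lower. At an unadjusted p under 0.05 in limma, 6 members were lower and 0 higher, a threshold at which the share of all features was not counted. The median log2 ratio of the 8 genes was -0.43 (range -0.68 to 0.12), against -0.0030 over all features, and the median size of change was 0.43 against 0.095. With each probe tested as a feature of its own, 7 of 12 member probes fell and 0 rose, where 11.3% of 20185 probes were called, 5.66% lower and 5.60% higher. At gene level the 5 called members were below 0 in all 3 cultures and the 3 others had mixed signs, where 44.6% of the 15477 features with values in all 3 cultures had the same sign in each. The remaining probe, that of Ephb6, had values in only 1 culture.

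**Figure D1:**
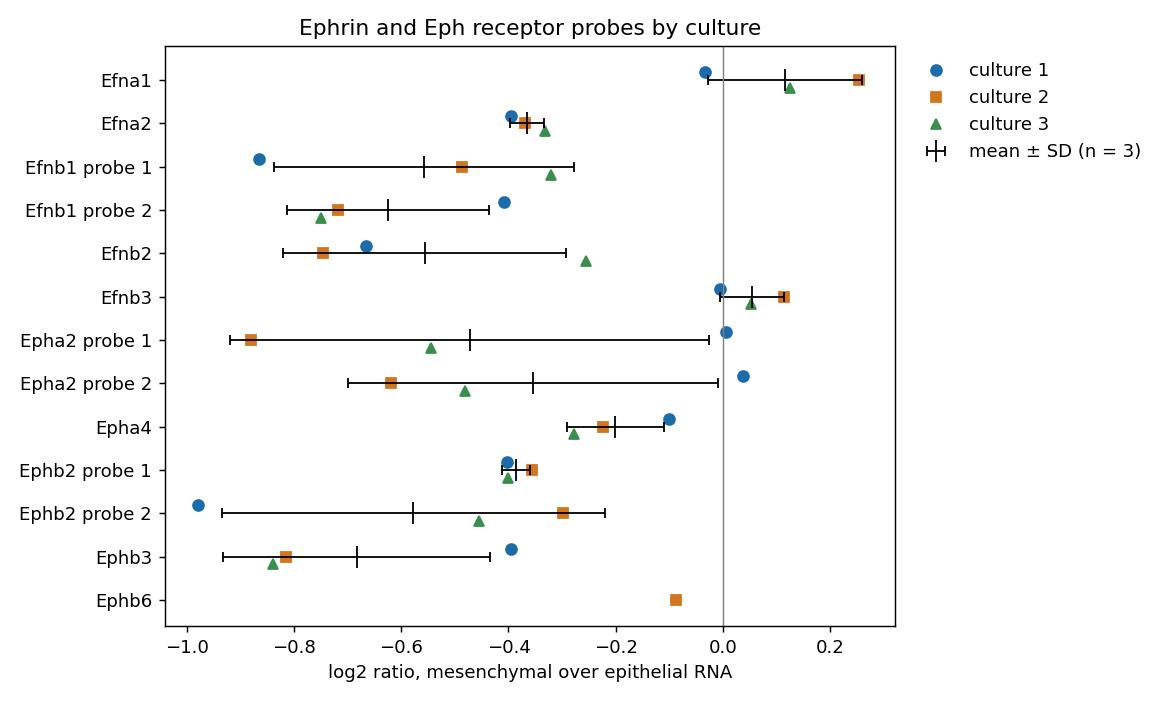
Log2 ratio of mesenchymal over epithelial RNA (horizontal axis) for each ephrin and Eph receptor probe, with the 3 cultures as points and mean ± SD as a black bar (probe 1 is the brighter probe of a gene, probe 2 the dimmer). Of the 12 probes with a test, 8 lie below 0 in all 3 cultures, and Efna1 and Efnb3 lie around 0.

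The count depended on single cultures. Without culture 1, 6 members fell (32.2% of all features called), while without culture 2 or without culture 3 only 1 did (7.2% and 4.86% of all features called). No member rose in any of these fits. Less RNA per cell and fewer cells that carry it cannot be told apart in these bulk RNAs.

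The 2 ephrin-A ligands differed. Intensities here and below were normalised within each array and not between arrays. Levels of different cultures are thus not on a common scale, which also limits what overlap of the groups can show. Efna1, an ephrin-A ligand that binds Epha2, had normalised intensities of 3162, 4360 and 4731 in mesenchymal cells of cultures 1, 2 and 3, against 3234, 3655 and 4337 in epithelial cells. The groups overlapped, culture 1 was the lowest in both, and the order of the cultures was the same. Its log2 ratio was 0.12 ± 0.14 (SD, n = 3), with a 95% interval of -0.083 to 0.31 and an adjusted p of 0.504 in limma, so a change was not shown. Efna2, the other measured ligand of this class, had intensities of 414, 543 and 465 in mesenchymal cells, against 545, 702 and 585 in epithelial cells. Here each mesenchymal value lay below every epithelial one, which held for either direction in 9.09% of all features. Efna2 fell by 0.37 ± 0.032 on the log2 scale, 1.29-fold lower, with cultures at -0.40, -0.37 and -0.33 and 5 of 6 arrays below 0 (adjusted p = 0.0199 in limma; 95% interval -0.53 to -0.20). Its probe was dim, with only 21.9% of probes at or below its brightness. Its call ended without culture 2 (-0.36, adjusted p = 0.120), without culture 3 (-0.38, adjusted p = 0.150) and in a fit without the array with a constant background (-0.35, adjusted p = 0.0507).

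Among the ephrin-B ligands, Efnb1 and Efnb2 fell and Efnb3 did not pass the test. The brighter Efnb1 probe had intensities of 8166, 14526 and 20216 in mesenchymal cells, against 14890, 20348 and 25252 in epithelial cells. The groups overlapped, but within each culture the mesenchymal value was the lower one. Efnb1, the X-linked ligand whose loss disturbs boundary formation, thus fell by 0.56 ± 0.28 on the log2 scale, 1.47-fold lower (adjusted p = 0.0279 in limma; 95% interval -0.83 to -0.28). Culture 1 gave -0.87, culture 2 -0.49 and culture 3 -0.32, and all 6 arrays were below 0. Without culture 2 it stood at -0.59 (adjusted p = 0.0544) and without culture 3 at -0.68 (adjusted p = 0.0541). The dimmer Efnb1 probe had 606, 726 and 548 in mesenchymal cells, against 804, 1194 and 921 in epithelial cells, with no overlap. It fell by 0.62 ± 0.19 (adjusted p = 0.0102 over all probes), again on 6 of 6 arrays, but with its smallest change in culture 1 (-0.41) and larger ones in cultures 2 and 3 (-0.72 and -0.75). The 2 probes thus gave the same direction and a different order of the cultures. Without culture 3 the dimmer probe stood at -0.56 (adjusted p = 0.0946).

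Efnb2, the ligand of Ephb4 best known from arterial endothelium, had intensities of 4549, 5585 and 5039 in mesenchymal cells, against 7221, 9374 and 6015 in epithelial cells. The groups did not overlap, and culture 3 had the smallest gap. Efnb2 fell by 0.56 ± 0.26 on the log2 scale, 1.47-fold lower (adjusted p = 0.0249 in limma; 95% interval -0.82 to -0.29), with cultures at -0.67, -0.75 and -0.26 and 6 of 6 arrays below 0. Without culture 2 it stood at -0.46 (adjusted p = 0.0934). Efnb3, an ephrin-B ligand studied mainly in the nervous system, was brighter than 96.2% of probes, with 18908, 32544 and 50361 in mesenchymal cells, against 18967, 30059 and 48553 in epithelial cells. The pairs were close in every culture, while the levels of the cultures lay far apart on a scale not shared between arrays. Its log2 ratio was 0.054 ± 0.060 (adjusted p = 0.749), with a 95% interval of -0.11 to 0.22.

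Neither EphA receptor was called changed on a probe that carries its name. Epha2, the receptor of Efna1 and a common receptor of epithelial cells, had intensities of 4669, 5817 and 7201 in mesenchymal cells, against 4649, 10704 and 10503 in epithelial cells. Culture 1 showed no gap and cultures 2 and 3 a wide one. The log2 ratio was -0.47 ± 0.45 (adjusted p = 0.135 in limma), made up of 0.0062 in culture 1, -0.88 in culture 2 and -0.54 in culture 3. Its 95% interval, which is not adjusted for the number of features, was -0.87 to -0.079 and left out 0. The dimmer Epha2 probe showed the same split, with 508, 452 and 446 in mesenchymal cells, against 495, 694 and 623 in epithelial cells, and log2 ratios of 0.037, -0.62 and -0.48 (mean -0.35 ± 0.35, adjusted p = 0.176 over all probes). Both probes thus set culture 1 apart from the other cultures. Without culture 1 the brighter probe stood at -0.71 and the dimmer one at -0.55, and both passed the threshold. With cultures 2 and 3 alone, 32.2% of all features were called at gene level.

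Epha4, a receptor that binds ligands of both classes, had 719, 1225 and 709 on the probe under its name in mesenchymal cells, against 771, 1431 and 859 in epithelial cells. The groups overlapped, each mesenchymal value was below its own epithelial partner, and the log2 ratio was -0.20 ± 0.090 (adjusted p = 0.165 over all probes). Without culture 1, where 32.2% of all features were called at gene level, it stood at -0.25 (adjusted p = 0.00921 over all probes). A brighter probe, listed in the files under 2900005C20Rik and outside the rule, is assigned to Epha4 by RefSeq's synonyms and was the probe used for that gene at gene level. It had 1106, 1264 and 944 in mesenchymal cells, against 1391, 1865 and 1166 in epithelial cells, and fell by 0.40 ± 0.14 (adjusted p = 0.0278 in limma) with 6 of 6 arrays below 0. That call ended without culture 2 (-0.32, adjusted p = 0.177), without culture 3 (-0.45, adjusted p = 0.123) and without the array with a constant background (-0.35, adjusted p = 0.106), and also with a variance model with trend and robust settings (adjusted p = 0.0539) and on the arrays with epithelial RNA in Cy5 alone (-0.19, adjusted p = 0.150). Whether both probes read the same transcript was not tested, since probe sequences were not used here.

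**Figure D2:**
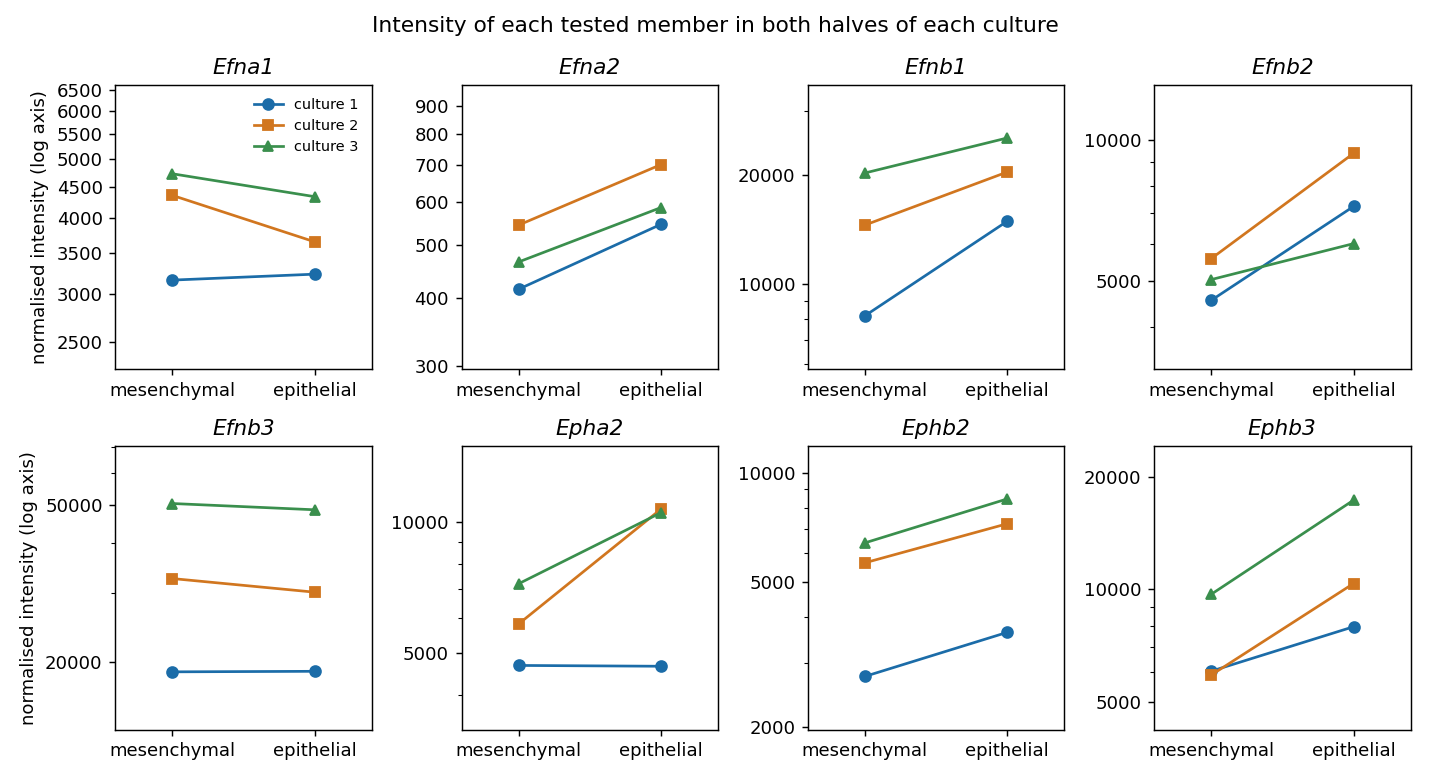
Normalised intensity (log axis, arbitrary units) of each ephrin and Eph receptor gene tested at gene level, with mesenchymal cells on the left and epithelial cells on the right of each panel and a line joining the 2 RNAs of a culture. The lines of Efnb1, Efnb2, Efna2, Ephb2 and Ephb3 run upward to the epithelial side in all 3 cultures, and that of Epha2 does so in cultures 2 and 3.

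Both EphB receptors that could be tested fell. Ephb3, a receptor known for holding cells in their compartment along the intestinal crypt, had intensities of 6036, 5892 and 9700 in mesenchymal cells, against 7944, 10373 and 17350 in epithelial cells. The groups overlapped and culture 3 was the highest in both RNAs, on a scale not shared between cultures. Each mesenchymal value was below its epithelial partner. Ephb3 had the largest fall among the members at gene level, by 0.68 ± 0.25 on the log2 scale or 1.61-fold (adjusted p = 0.0107 in limma; 95% interval -0.94 to -0.43), with cultures at -0.40, -0.82 and -0.84 and 4 of 6 arrays below 0. Without culture 3 it stood at -0.61 (adjusted p = 0.0817).

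Ephb2, a receptor of the ephrin-B ligands that shares this role with Ephb3 in the intestine, had 2755, 5651 and 6409 on its brighter probe in mesenchymal cells, against 3641, 7235 and 8465 in epithelial cells. The groups overlapped, but the gap was almost the same in each culture (-0.40, -0.36 and -0.40). Ephb2 fell by 0.39 ± 0.026, 1.31-fold lower (adjusted p = 0.0165 in limma; 95% interval -0.55 to -0.22), with 6 of 6 arrays below 0. Its call ended without culture 2 (-0.40, adjusted p = 0.0849) and without culture 3 (-0.38, adjusted p = 0.153). The dimmer Ephb2 probe had 2859, 3237 and 2726 in mesenchymal cells, against 5638, 3978 and 3738 in epithelial cells, with no overlap. It fell by 0.58 ± 0.36 (adjusted p = 0.0487 over all probes) with an uneven set of cultures, -0.98, -0.30 and -0.46 and 4 of 6 arrays below 0, and stood at -0.64 without culture 3 (adjusted p = 0.160). Ephb6, a receptor without kinase activity, had 715, 941 and 908 in mesenchymal cells, against 678, 1000 and 1121 in epithelial cells when spots flagged as outliers are included. Outlier flags on 2 arrays, in cultures 1 and 3, left only culture 2, with a log2 ratio of -0.088, and no test.

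The 2 dye orientations of a culture often differed in size, and for some probes in sign. Across the 12 tested member probes 55 of 72 array values were below 0, a share that was not counted over all probes. These values are not independent, since the arrays of a culture share RNA and some genes have several probes. For 4 probes (both of Efnb1, that of Efnb2 and the brighter one of Ephb2) all 6 arrays were below 0, where 11.8% of the 17709 probes with values on all 6 arrays had the same sign on each. The dye effect is the part of the Cy5 over Cy3 ratio that does not turn with the RNA. It was itself past the threshold for 8 of the 12 probes and for 57.7% of all probes in limma. In size it was larger than the mesenchymal over epithelial log2 ratio for 3 of the 12 (Ephb3, the dimmer Ephb2 probe and Efnb3). The share of all probes with this was not counted, but over all features the median size was 0.21 for the dye effect and 0.095 for the log2 ratio.

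Ephb3 had the largest dye effect of the 12 probes. With mesenchymal RNA in Cy5 its log2 ratios were 0.29, -0.14 and 0.014 in cultures 1, 2 and 3, and with mesenchymal RNA in Cy3 they were -1.08, -1.49 and -1.69. The fall was therefore carried by 1 orientation, in all 3 cultures, with a dye effect of 0.74 on the log2 scale. The dimmer Ephb2 probe split the other way, at -1.50, -1.21 and -1.22 with mesenchymal RNA in Cy5 against -0.46, 0.62 and 0.30 with it in Cy3. The brighter Ephb2 probe, with the same direction on every array and a dye effect of 0.20, showed no such change of sign. Efna2 ran at -0.21, -0.015 and 0.045 with mesenchymal RNA in Cy5, and at -0.58, -0.72 and -0.71 with it in Cy3. In Efnb2 the larger values came with mesenchymal RNA in Cy5 (-0.90, -0.93 and -0.45) and the smaller ones with it in Cy3 (-0.43, -0.56 and -0.062). Of the 5 called genes, Efnb1, Efnb2 and Ephb2 thus had 1 sign on all 6 arrays, and Efna2 and Ephb3 did not. Fitted on the 3 arrays of a single orientation, the calls of Efnb1 (-0.36, adjusted p = 0.125) and Efnb2 (-0.35, adjusted p = 0.0815) ended with epithelial RNA in Cy5, and those of Efna2 (-0.059, adjusted p = 0.599), Ephb2 (-0.19, adjusted p = 0.142) and Ephb3 (0.052, adjusted p = 0.713) ended with epithelial RNA in Cy3.

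**Figure D3:**
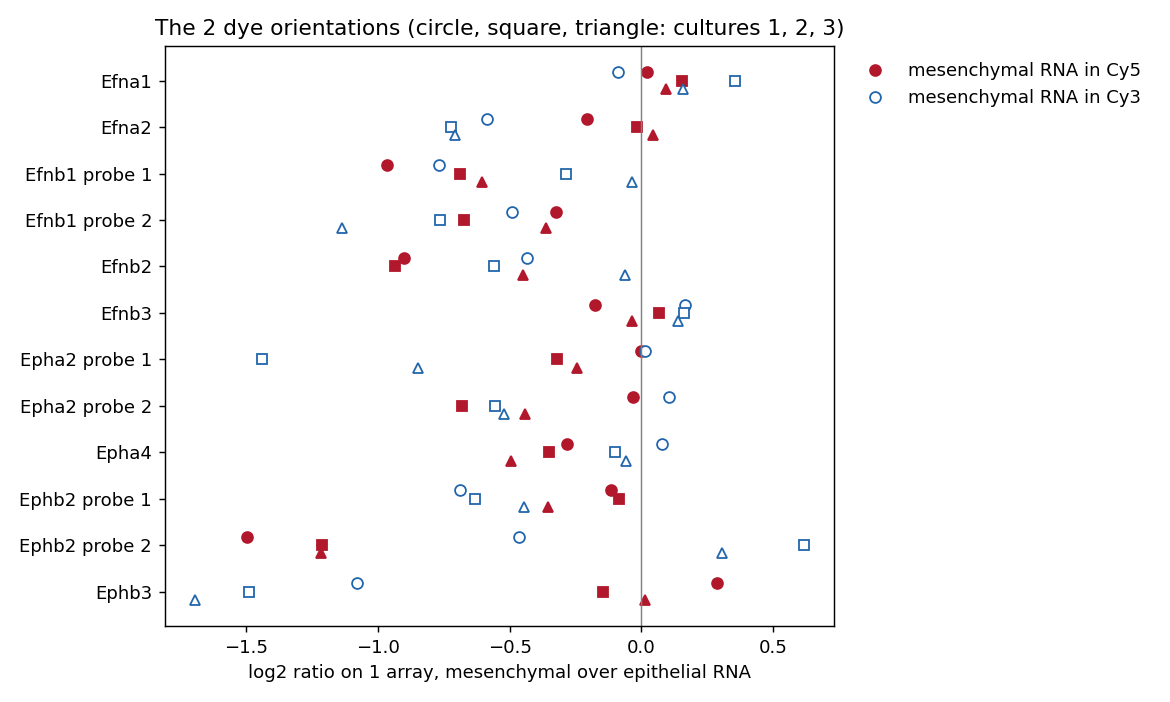
Log2 ratio of mesenchymal over epithelial RNA on each single array (horizontal axis) for each tested ephrin and Eph receptor probe, with filled red symbols for mesenchymal RNA in Cy5, open blue symbols for mesenchymal RNA in Cy3, and circles, squares and triangles for cultures 1, 2 and 3. The Ephb3 and dimmer Ephb2 probes split by orientation in opposite senses, while both Efnb1 probes, Efnb2 and the brighter Ephb2 probe stay below 0 on all 6 arrays.

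**Figure D4:**
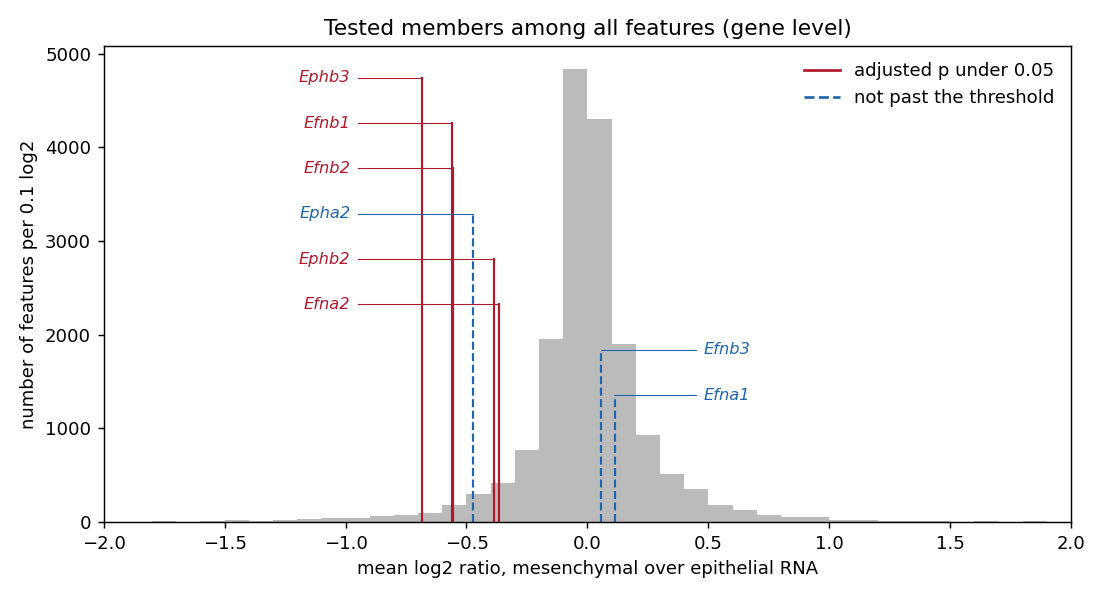
Histogram of the mean log2 ratio of all 17582 features (horizontal axis, mesenchymal over epithelial; vertical axis, features per bin of 0.1), with the 8 members tested at gene level as vertical lines, solid red where called and dashed blue where not. The members span -0.68 to 0.12, and all features -3.35 to 3.69, of which the axis shows -2 to 2.

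The changes of the family were small beside the largest ones on the array. No member reached a 2-fold change, which 317 features did, and no member kept its call at an adjusted p under 0.01. In size of change the Ephb3 probe stood above 95.9% of probes and the Efnb3 probe above 31.3%. The 3 named genes closest to Ephb3, the called member with the largest fall, over the 3 cultures were Ccdc86, a nucleolar protein gene, at -0.43, -0.79 and -0.87 (root mean square difference 0.027 on the log2 scale), the embryonic globin gene Hbb-bh1 at -0.50, -0.81 and -0.84 (0.059), and Iars, an isoleucyl-tRNA synthetase gene, at -0.51, -0.86 and -0.89 (0.074). They were the nearest of 7761 named genes, of which 8 lay within 0.1. Likeness over 3 values is a description of these cultures.

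Most genes that act with Eph receptors and ephrins inside the cell or at the membrane did not pass the test. Of 54 such genes, 37 were measured, 2 rose, 4 fell and 31 did not pass the test, where 11.9% of all features were called. Their median log2 ratio was -0.092 (range -1.03 to 1.30), and 13 were past an unadjusted p of 0.05 in limma, 3 higher and 10 lower. The share of all features past that unadjusted threshold was not counted, so no background stands beside these numbers. Pdzrn3, a PDZ and ubiquitin ligase protein that binds ephrin-B ligands and their partners, rose by 1.30 ± 0.19, with cultures at 1.08, 1.41 and 1.41, all 6 arrays above 0 and an adjusted p of 0.000684. Its dye effect was -0.77, and its log2 ratio was 0.53 on the arrays with epithelial RNA in Cy3 and 2.07 on those with it in Cy5. Dvl2, a Dishevelled protein that ephrin-B ligands can recruit, rose by 0.41 ± 0.073 (cultures 0.39, 0.49 and 0.35, adjusted p = 0.0158, 6 of 6 arrays above 0). The Dvl2 call ended without culture 2 (0.37, adjusted p = 0.110) and without culture 3 (0.44, adjusted p = 0.104).

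The 4 partners that fell were Tiam1, Vav2, Vav3 and Grb10. Tiam1, which activates Rac downstream of ephrin-B ligands and EphA receptors, fell by 1.03 ± 0.44 with cultures at -1.51, -0.95 and -0.63 (adjusted p = 0.0107 in limma) and 6 of 6 arrays below 0. Vav2, which is needed for Eph internalisation, fell by 0.89 ± 0.43 (cultures -1.37, -0.53 and -0.79, adjusted p = 0.0167), with 4 of 6 arrays below 0 and a dye effect of -0.85. Without culture 3 Vav2 stood at -0.95 (adjusted p = 0.0659). Its relative Vav3 fell by 0.47 ± 0.24 (cultures -0.70, -0.50 and -0.21, adjusted p = 0.0370), while another Vav3 probe gave -0.06. The Vav3 call ended without culture 2 (-0.45, adjusted p = 0.115) and without culture 3 (-0.60, adjusted p = 0.0524), with the mean of its probes (-0.26, adjusted p = 0.0939) and with a variance model with trend and robust settings (adjusted p = 0.0578). Grb10, an adaptor that binds activated receptor tyrosine kinases, fell by 0.83 ± 0.32 (cultures -0.50, -1.14 and -0.87, adjusted p = 0.00952), with all 6 arrays below 0, and stood at -0.82 without culture 3 (adjusted p = 0.0619). The values of the other called partners also differed by orientation. On the arrays with epithelial RNA in Cy5 alone, Vav2 stood at -0.042 (adjusted p = 0.919), Vav3 at -0.17 (adjusted p = 0.286), Dvl2 at 0.21 (adjusted p = 0.131) and Tiam1 at -0.67 (adjusted p = 0.00911). On those with it in Cy3 alone, Grb10 stood at -0.48 (adjusted p = 0.0748). The kinases and GTPases at the core of the pathway, such as Rac1 (-0.19, adjusted p = 0.176), Cdc42 (0.21, adjusted p = 0.344), Rhoa (-0.36, adjusted p = 0.0515) and the focal adhesion kinase gene Ptk2 (0.014, adjusted p = 0.967), did not pass.

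**Figure D5:**
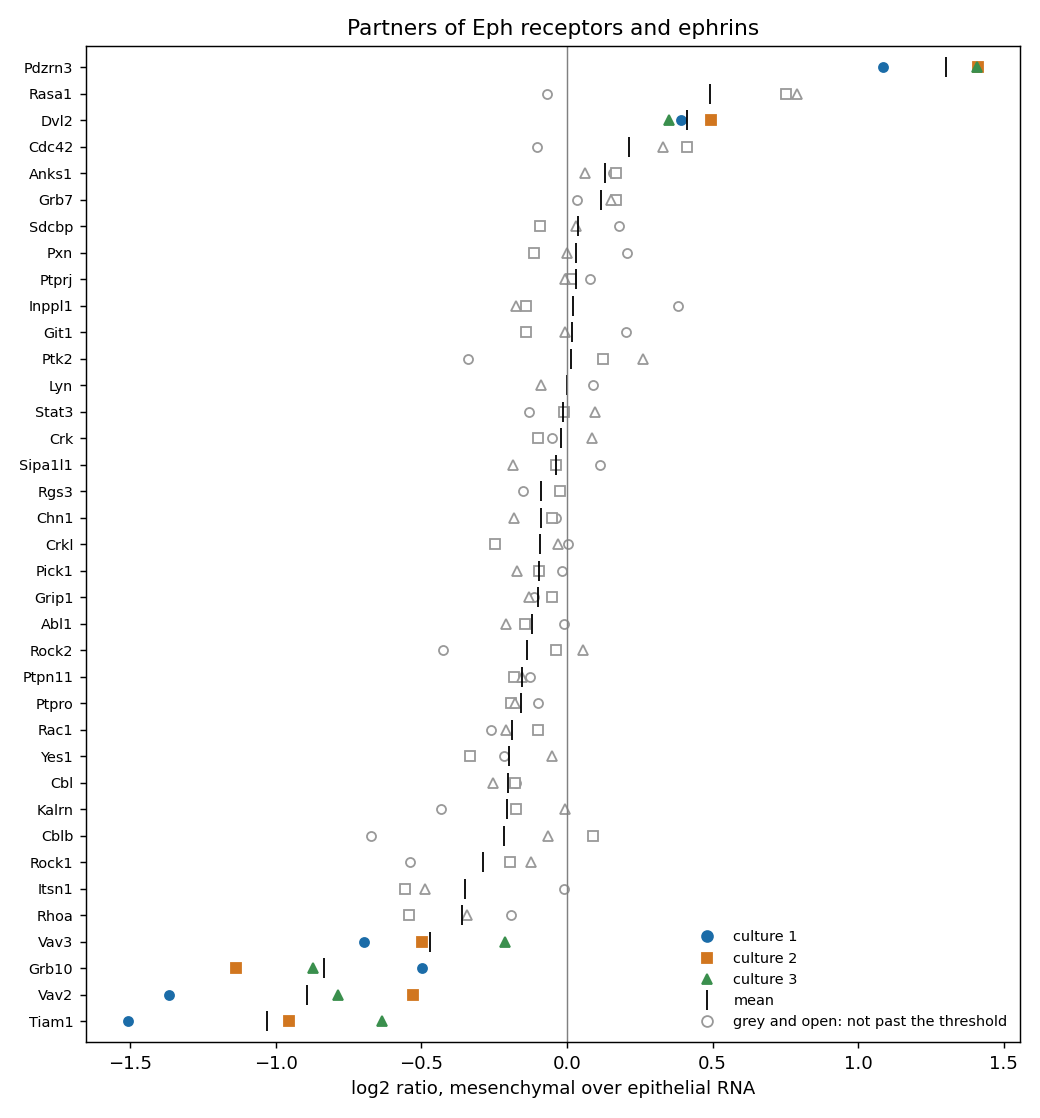
Log2 ratio of mesenchymal over epithelial RNA (horizontal axis) for the 37 measured partners of Eph receptors and ephrins, with the cultures as points, the mean as a black line, called genes filled in colour and the others open in grey. Lyn and Rgs3 had values in 2 cultures. Pdzrn3 lies highest at 1.30 and Tiam1 lowest at -1.03.

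Most measured markers of the cultured layer and a few of other cell types were lower as well. Over all features 11.9% were called, 5.96% higher and 5.92% lower, and for the unadjusted counts below no such share was taken. In lists this short, 1 or 2 calls were not read as a change of the cell type. Of 13 markers of ovarian surface epithelium and mesothelium, 9 were measured and above background in both RNAs on 6 of 6 arrays, 6 fell and 0 rose (median -0.89, range -2.98 to 0.31; 7 lower and 2 higher at an unadjusted p under 0.05 in limma), and their summed intensity was 162224 to 180025 in mesenchymal cells, against 295280 to 352815 in epithelial cells. The keratin probes in that sum were partly saturated, Krt7 for epithelial RNA on 6 of 6 arrays, Krt19 for epithelial RNA on 2 and Krt8 on 3 arrays in each RNA, so the sums are bounded by the scanner. Markers of cells that could be present besides, endothelium among them because Efnb2 and Ephb receptors are active there, were also followed. Of 12 endothelial markers 7 were measured and 0 were called (-0.24 to 0.22; 1 lower and 1 higher at an unadjusted p under 0.05 in limma), with sums of 15315 to 37550 in mesenchymal cells, against 14432 to 39626 in epithelial cells. Of 9 markers of pericytes and smooth muscle 8 were measured and 1 fell, Acta2 (2 lower and 0 higher at an unadjusted p under 0.05), with sums of 38076 to 58518 in mesenchymal cells, against 72282 to 95049 in epithelial cells. In epithelial RNA the Acta2 probe reached saturation on 5 of 6 arrays and made up most of the sum, at 24961 to 29311 in mesenchymal cells, against 59682 to 65561 in epithelial cells. Of 8 leukocyte markers 4 were measured and 1 rose, Cd53 (1 higher and 0 lower at an unadjusted p under 0.05), with sums of 7930 to 18880 in mesenchymal cells, against 7723 to 18979 in epithelial cells. Of 6 granulosa markers all were measured and 1 fell, Inhba (1 lower and 0 higher at an unadjusted p under 0.05), with sums of 15719 to 33737 in mesenchymal cells, against 18953 to 37826 in epithelial cells. Of 7 theca and stroma markers all were measured and 2 fell, Ogn and Pdgfra (list median -0.25; 4 lower and 0 higher at an unadjusted p under 0.05 in limma), with sums of 26780 to 32278 in mesenchymal cells, against 35373 to 44381 in epithelial cells. Intensities of different probes are not on a common scale, so a sum leans on its brightest probes. The sums of different cultures were not scaled to each other either. The granulosa marker Cyp19a1, the pericyte marker Kcnj8 and the theca marker Lhcgr were near the floor. In mesenchymal and epithelial RNA, Cyp19a1 lay above the 95th percentile of the negative control spots on 3 and 2 of 6 arrays. Kcnj8 did so on 4 and 3 arrays, and Lhcgr on 5 and 5. The part of these cell types in the values of ephrins and Eph receptors was not tested.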

How the data were processed

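RNA of 3 cultures was measured on 6 Agilent arrays. Per the file headers, the deposited scanner intensities are spot means and local background medians in linear units, from Agilent Feature Extraction, and the deposited log10 ratios of Cy5 over Cy3 were lowess-normalised by that software. A value table deposited by the authors also has log10 ratios. Set against the scanner log ratios, its columns matched the mean of a culture's arrays turned to mesenchymal over epithelial, which settles scale and centring (medians of 0.00555 in culture 1, -0.0101 in culture 2 and -0.00233 in culture 3). Its direction, like that of every ratio here, rests on the dyes given in the names of the deposited arrays. The submitters' processing notes name limma, with no settings. Flags (0 or 1) were used as deposited.

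From the intensities, log2 ratios were made in limma 3.58.1 (R 4.3.3) with normexp background correction at an offset of 50 and loess normalisation of each array, giving control spots weight 0. Arrays were turned to mesenchymal over epithelial, outlier-flagged spots left out, and the 2 arrays of a culture averaged where both had a value. Probes had to be flagged well above background on 4 or more of the 6 arrays in either RNA (20328 of 20371 kept, a weak filter, since 18.5% to 81.5% of negative control spots carried the flag) and values in at least 2 cultures. Of 17582 features, 2105 rested on 2 cultures. Genes were represented by their brightest probe, and each unnamed probe stayed a feature of its own. The intensities printed are the normalised channel values on this scale, averaged over a culture's arrays on the log scale. Those of marker genes and their sums were averaged on the linear scale instead. All printed intensities include outlier-flagged spots and were not scaled between arrays. Ratios were tested against 0 with lmFit and eBayes; SDs are over cultures. The steps were tested on simulated data. The number of arrays limits the precision. Alternatives were other background corrections, normalisations, probe filters, variance models, single dye orientations, an unpaired fit and each culture left out. Names came from RefSeq gene IDs (9946 probes), current symbols (95), synonyms (1335) or the files (1256), and 7739 probes stayed unnamed.

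All members were named whatever their values. From the pathway list, up to 6 called genes with the largest rise and up to 6 with the largest fall were named, and the core kinases and GTPases quoted beside them were chosen after their values were seen. The members and lists were chosen with earlier results of these data known, and motifs were chosen after the genes.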

Additional observations from a re-analysis of the deposited data

How the results depend on the processing

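Of 8 members, 5 fell and 0 rose; the count was 5 as well under the other background corrections, normalisations, probe filters and variance models. With the mean of a gene's probes 6 of 9 genes fell, Epha4 being the one added (-0.30, adjusted p = 0.0455 in limma). That mean takes in the probe listed under 2900005C20Rik, which lies outside the rule. With every probe tested 7 of 12 member probes fell, those of the same 5 genes as in the main fit. No setting gave a rise of a member at an adjusted p under 0.05. For the counts at an unadjusted p below, the share of all features was not taken. Leaving out a culture gave 1 to 6 members, 818 to 5154 of all features (2088 with all cultures) and 2 to 11 partner genes (6 with all cultures). With no replicate block, that is without pairing the RNAs of a culture, 0 members, 244 features and 0 partners were called in limma (2 members at an unadjusted p under 0.05, both lower, and 7 partners). The 3 arrays with epithelial RNA in Cy3 alone gave 2 of 9 members, 7076 features (40% of all) and 21 of 37 partners. The 3 with it in Cy5 alone gave 3 of 9 members, 5879 features (33.3% of all) and 16 of 37 partners. Ephb3 stood at 0.052 (adjusted p = 0.713) on the first of these sets. An adjusted p under 0.01 left 0 members (6 lower at an unadjusted p under 0.05), 933 features and 2 partners, and a 2-fold minimum 0 members, 317 features and 2 partners. The fit of 5 arrays, without the array with a constant background, was chosen after seeing the data and gave 4 members and 1662 features. The median log2 ratio of all features lay between -0.019 and 0.020 under every setting run. The fit with the scan date as a block was not run, since the files used here give no scan date. With 3 cultures, the spread of each gene is estimated from few values, and which cultures enter decides most calls.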
